A study of Mus musculus with 7 samples.

Results

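The genes described here are 50 genes of the cell division cycle, from the D-type cyclins that start it to the kinesins and ubiquitin enzymes that finish it. They were named by function, but with earlier results of these data known. In mouse intestinal epithelium all 50 had at least 1 probe on the array, 66 probes in all, found through the accession that the scanner files give for each probe. Of these genes 47 were bright enough to test, among 24763 features tested, of which 13805 were named genes. The other 3, Aurkb (a kinase of the chromosomal passenger complex), Ccne2 (an E-type cyclin) and Cenpf (a kinetochore protein), did not reach the brightness needed (well above background on 2 or more of the 7 arrays) and are given no value.

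The study deleted Mob1a and Mob1b, which encode adaptors of the Lats kinases in the Hippo pathway, from the gut epithelium of 8-week-old male mice. Its background was C57BL/6J, after more than 6 generations of backcrossing, and tamoxifen was given at 80 mg/kg per day for 2 days. All 4 groups carried both floxed genes and received tamoxifen, per the labels. Controls (labelled wild type, genotype Mob1a f/f and Mob1b f/f) had no Cre, and knockouts also carried Villin-creERT2, a tamoxifen-activated Cre driven in epithelium by the Villin promoter. Controls gave 2 arrays, and knockouts gave 2 arrays for day 4 after tamoxifen, 2 for day 7 and 1 for day 10. The labels put the controls at day 7, whereas the design text speaks of day 0, so their day is not settled. The design text gives 2 different male mice per time for the first 3 groups and does not mention day 10. Cells came off the proximal intestine in 2 mM EDTA, and their RNA was hybridised to 1-colour Agilent arrays, where a level is a probe's brightness. Levels below are log2 signals relative to the 75th percentile of each array, so 0 is the signal of that percentile. A level can be compared between arrays for the same gene, not between genes.

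In the gut, cells divide in the crypt: stem cells and their transit-amplifying daughters cycle, and the enterocytes that move onto the villus do not. D-type cyclins with Cdk4 or Cdk6 phosphorylate the retinoblastoma protein and free E2F factors, which switch on the genes of DNA replication. Cdc6 and Cdt1 then load the Mcm helicase on origins, Cdc45 and the GINS proteins activate it, and ribonucleotide reductase supplies deoxynucleotides. Foxm1 and the B-type cyclins drive entry into mitosis, where motors and kinetochore proteins build the spindle until Cdc20 and Ube2c bring about the destruction of cyclins. In an RNA extract of many cells, fewer cycling cells and less RNA per cycling cell cannot be told apart.

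The arrays resembled each other in brightness, apart from day 10. Their 75th percentile signal was 277.9 to 338.6 on the first 6 arrays and 469.6 on the day 10 array, 45.2% to 51.3% of probes were well above background, and no spot was saturated. Mob1b read 2.66-fold below the controls at day 4 (log2 -1.41 ± 0.22 SE; limma, Benjamini-Hochberg adjusted p = 0.18). The fold was 2.95 at day 7 (adjusted p = 0.013) and 3.07 for the day 10 array (adjusted p = 0.0068). Mob1a read log2 -0.25, 0.27 and 1.62 from the controls (adjusted p = 0.96, 0.55 and 0.010). Its probe was near background. It was well above background on 1 of 2 control arrays, 2 of 2 at day 4, 1 of 2 at day 7 and the day 10 array. No probe of either gene is known to lie in the deleted exons, so neither reading checks the deletion. All 9 epithelial markers were above background on all 7 arrays, while the stromal markers Col1a1, Pdgfra and Des and the B-cell marker Cd79a were not above background on any. On the slide, row 1 held the controls with day 4, and row 2 held the later times, so row and time cannot be told apart between them.

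The clearest pattern over the cell cycle genes lay between the 2 mice of a knockout group. At day 4 all 47 were higher in replicate 1 than in replicate 2, by a median of 0.85 on the log2 scale (lowest 0.30). The day 7 arrays repeated this: all 47 were higher in replicate 1, by a median of 0.65 (lowest 0.02). Over all 24763 features replicate 1 was the higher array for 45% at day 4 and 52.6% at day 7, with median gaps of -0.05 and 0.03. The controls were closer, with 35 of 47 genes higher in replicate 1 and a median gap of 0.15. Under 3 other scalings and the normexp background correction, 47 of 47 remained higher in replicate 1 at day 4, and between 43 and 47 at day 7; the exceptions at day 7 with normexp were Birc5, E2f1, Cdca7 and Nusap1. A replicate number is only a name here, and nothing in the labels ties replicate 1 of day 4 to replicate 1 of day 7.

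**Figure D1:**
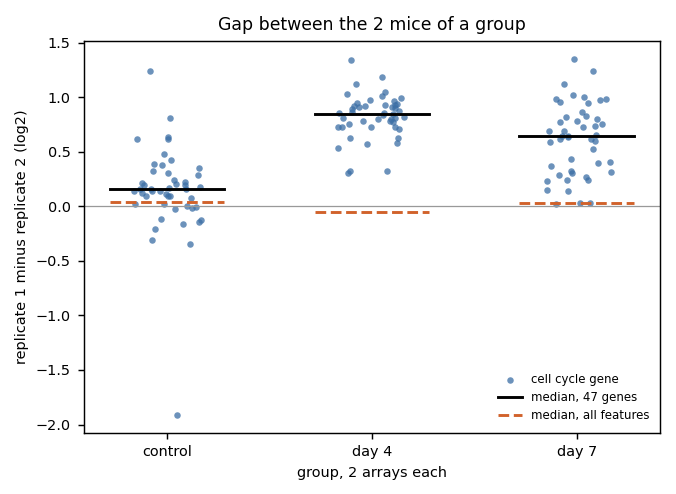
Level on replicate 1 minus level on replicate 2 (log2, vertical axis) for the control, day 4 and day 7 groups; each point is 1 of the 47 cell cycle genes, the black line is their median and the dashed line the median over all features. All points lie above 0 at day 4 and at day 7, and the lowest control point is Kif23.

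Other genes of division showed the same gap. Of 107 genes in 7 lists of related genes, none of them among the 50, 96 were higher in replicate 1 at day 4 (median gap 0.73) and 86 at day 7 (median gap 0.51). In the controls 67 of the 107 were higher in replicate 1 (median gap 0.08). The lists were not alike: the CDK inhibitors and pocket proteins had 6 of 10 higher at day 4 and 5 of 10 at day 7, and the other E2F and MuvB factors 8 of 12 and 9 of 12, with 8 of 12 in the controls too. Genes for fork and chromatin duplication went from 24 of 25 at day 4 to 17 of 25 at day 7, while kinetochore and spindle checkpoint genes had 12 of 12 at both. Among the 47 themselves, Bub1, a kinase of the spindle checkpoint, had a log2 level of 0.32 and -0.54 on the day 4 arrays, 0.37 and -0.16 on the day 7 arrays, -0.32 and -0.51 on the controls and 0.26 at day 10. Markers of cell types also differed between the 2 mice. The summed linear level of 4 crypt base stem cell markers was 32.7 in replicate 1 and 21.7 in replicate 2 at day 4, and 13.7 and 12.0 at day 7, while the controls ran the other way at 19.4 and 26.8. At day 4 all 4 of these markers were higher in replicate 1, and at day 7 only 2 of 4 were, Ascl2 and Smoc2. In the controls 3 of 4 were higher in replicate 1, and the reversed sum came from Smoc2 (log2 level 3.25 and 4.23). The summed level of 6 enterocyte markers was lower in replicate 1 of each group: 2528 and 2624 in the controls, 2084 and 2522 at day 4, and 1661 and 2125 at day 7. Single enterocyte markers went the other way, namely Fabp2 in the controls (log2 level 9.89 and 9.39), and Alpi (8.09 and 8.05) and Sis (8.18 and 7.96) at day 7. Every other enterocyte marker was lower in replicate 1 of its group. The part of the stem cell and enterocyte markers in the gap was not tested.

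Set against the controls, each array therefore gave its own answer. Replicate 1 of day 4 had 45 of 47 genes above both controls and none below (median 0.57 above the control mean, log2), where all features gave 28.6% above and 45.7% below. Replicate 2 had 8 above and 31 below (median -0.19), beside 27.6% and 43.3% of all features. Replicate 1 of day 7 had 37 above and 2 below (median 0.66; all features 38.5% and 43.1%), and replicate 2 had 19 above and 17 below (median 0.02; 33.1% and 45.8%). The day 10 array had 24 above and 18 below (median 0.14; 37.6% and 49.8%). So a group mean at day 4 or day 7 averages 2 unlike arrays. On replicate 1 most of these genes were above both controls. On replicate 2 most lay below both at day 4, and at day 7 they lay on both sides.

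**Figure D2:**
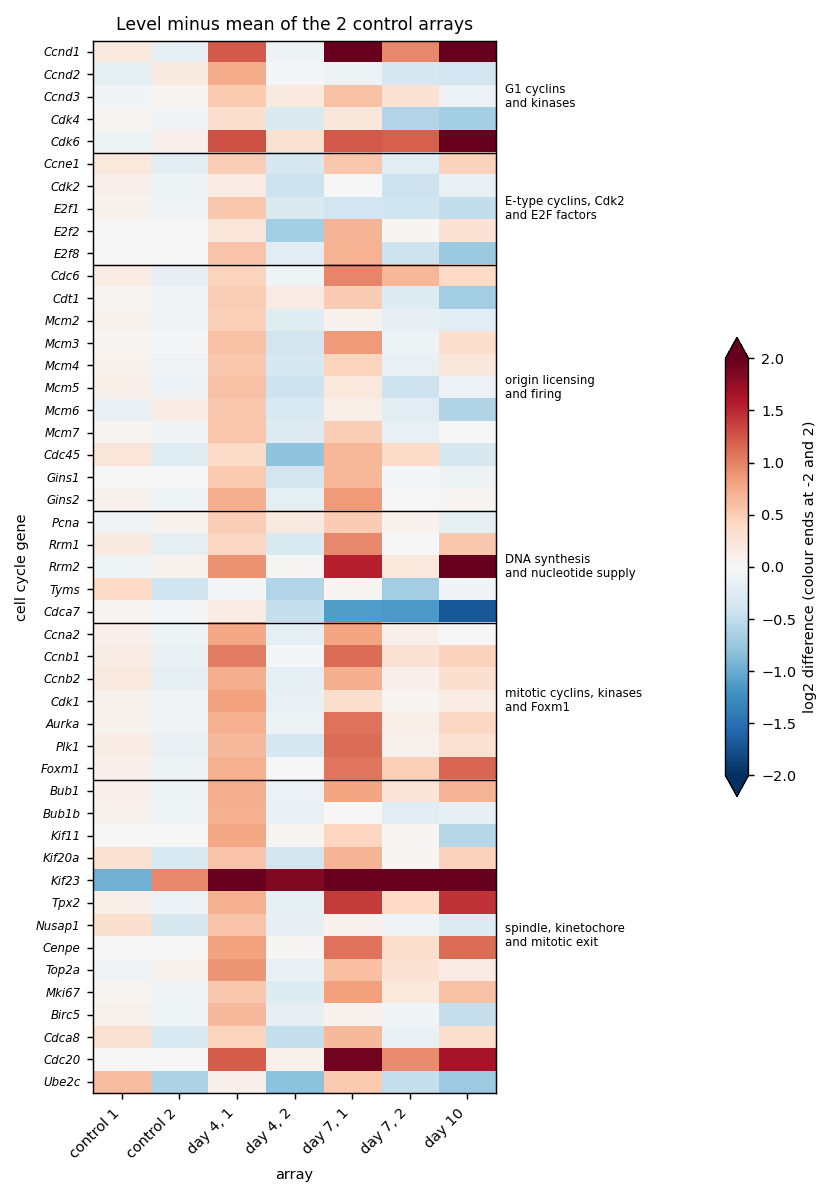
Level of each of the 47 cell cycle genes (rows, by role) on each of the 7 arrays (columns) minus the mean of the control arrays, in log2 units with colours ending at -2 and 2. The columns of replicate 1 at day 4 and day 7 are red in nearly every row, Cdca7 is blue at day 7 and day 10, and Ccnd1, Cdk6, Rrm2, Kif23 and Cdc20 are red at day 10.

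At day 4, none of the 47 genes passed the test (limma, adjusted p under 0.05), beside 0.0323% of all features. At an unadjusted p under 0.05 there was 1 of 47, against 1531 of all features (6.18%). On both day 4 arrays 8 genes (17%) lay above both controls, namely Pcna, Kif11, Cenpe, Cdc20, Ccnd3, Kif23, Cdt1 and Cdk6, and none lay below; over all features the shares were 11.7% above and 25.6% below. The median difference over the 47 genes was 0.20 and that over all features -0.07. It was -0.19 without replicate 1 and 0.57 without replicate 2.

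At day 7, again none of the 47 passed, beside 7.37% of all features. An unadjusted p under 0.05 was found for 6 of 47, against 5628 features (22.7%). Both arrays lay above both controls for 19 genes (40.4%) and below for 2 (4.26%), Cdca7 and E2f1, where all features gave 22.9% above and 31.1% below. The median difference was 0.36, against -0.06 over all features, and 0.02 without replicate 1 or 0.66 without replicate 2. The SE, which rests on the spread between arrays of the same group, was larger for these genes. Its median for a day 7 difference was 0.37 for the 47 genes and 0.28 for all features. At day 7 the stem cell markers summed to 12.0 to 13.7, against 19.4 to 26.8 in the controls, and 6 T cell markers to 86.0 to 87.4, against 56.4 to 58.5, whose part in these values was not tested. In that T cell sum Gzmb was 1.48 above the controls (log2) and Cd4 0.46, whereas Cd3e, Cd3d and Cd3g differed by at most 0.06.

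At day 10, 5 of the 47 genes passed: Ccnd1, Cdk6, Kif23 and Rrm2 were higher than in the controls and Cdca7 was lower. Over all features 10.7% were called higher and 17.5% lower (2651 and 4344 features); when arrays were scaled over the probes detected in all of them, these became 3338 and 3452. The median difference of the 47 was 0.14 and that of all features -0.13. Day 10 was a single array, so its differences assume that it varied like the other groups. It was also the array whose cell type markers moved most. Enterocyte markers summed to 217.6 there against 2528 to 2624 in the controls, the 4 stem cell markers to 1.72 against 19.4 to 26.8, the T cell markers to 7.88 against 56.4 to 58.5, and 5 myeloid markers to 315.2 against 39.0 to 42.5. The neutrophil gene S100a9 stood at a level of 7.44 at day 10 and was not above background in the controls. The other myeloid markers did not all follow: day 10 differences from control were 3.34 for Csf1r, 0.76 for Itgam and -0.84 for Lyz2 (log2). The part of these shifts in the day 10 values was not tested.

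**Figure D3:**
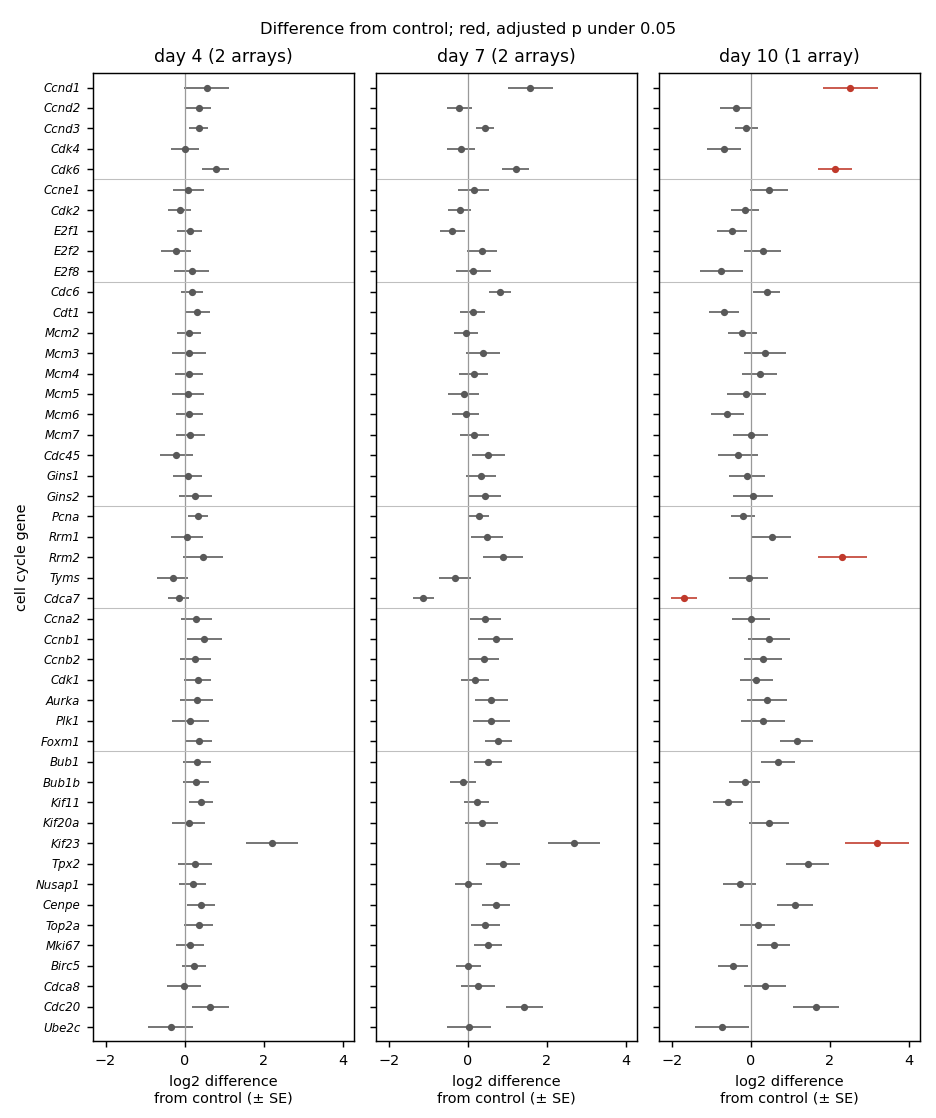
Difference from control (log2, horizontal axis, point and SE) at day 4, day 7 and day 10 for each of the 47 genes, in the order of their roles. The 5 red points, all at day 10, are the genes that passed at an adjusted p under 0.05.

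Between the knockout times none of the 47 genes passed. From day 4 to day 7 that was beside 2.81% of all features, with 1 of 47 against 4335 features (17.5%) at an unadjusted p under 0.05. From day 7 to day 10 it was beside 18.2%, with 0 of 47 against 8003 features (32.3%). Median differences were 0.15 and -0.10, against 0.00 and -0.09 over all features. The first was -0.20 without replicate 1 of day 7 and 0.60 without replicate 1 of day 4, and the second was 0.18 without replicate 1 of day 7.

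Promoter sequences were set beside the values because the 47 genes all differed the same way between the 2 mice of day 4 and of day 7. RefSeq (GRCm38.p6) gave windows from 250 bases before to 50 bases after the start for 39 of the 50 genes, 42 windows in all. Both strands were searched for 4 E2F words (TTTGGCGC, TTTCCCGC, TTTCGCGC, TTTGCCGC), for the CHR word TTTGAA of mitotic genes and for the CCAAT word of NF-Y; the E2F words can overlap one another. An E2F word was present in 10 of 42 windows (23.8%), against 2.26% of 32851 windows of the same length. The CHR word stood in 17 of 42 (40.5%, against 17.9%) and CCAAT in 31 of 42 (73.8%, against 37.4%). By role, E2F words were in 6 of 9 windows of origin licensing genes, 2 of 6 of the E-type cyclin and E2F group, 1 of 5 for DNA synthesis, 1 of 5 for mitotic cyclins and kinases, 0 of 4 for G1 genes and 0 of 13 spindle windows. The CHR word was in 9 of 13 spindle windows, 4 of 5 mitotic, 2 of 9 licensing and 2 of 6 E-type windows, and in 0 of 5 and 0 of 4 for DNA synthesis and G1; differences between roles were not tested. The matches are letters in a window and not shown to be bound sites. The windows printed are that of a licensing gene with several E2F words, then those of Cdca7, Rrm2, Cdc20 and Kif23. Each is in lower case with the words in capitals. Cdc20 did not pass the test at any time. Cdk6, called at day 10, is not printed, and its window holds none of the words. Ccnd1, also called at day 10, had no window.
Mcm6: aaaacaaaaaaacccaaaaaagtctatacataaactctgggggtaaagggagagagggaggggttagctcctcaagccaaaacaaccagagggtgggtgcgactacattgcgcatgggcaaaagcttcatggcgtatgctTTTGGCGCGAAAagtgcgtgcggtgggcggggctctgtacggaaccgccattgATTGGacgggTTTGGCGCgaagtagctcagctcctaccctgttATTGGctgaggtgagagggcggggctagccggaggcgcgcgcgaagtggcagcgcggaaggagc
Cdca7: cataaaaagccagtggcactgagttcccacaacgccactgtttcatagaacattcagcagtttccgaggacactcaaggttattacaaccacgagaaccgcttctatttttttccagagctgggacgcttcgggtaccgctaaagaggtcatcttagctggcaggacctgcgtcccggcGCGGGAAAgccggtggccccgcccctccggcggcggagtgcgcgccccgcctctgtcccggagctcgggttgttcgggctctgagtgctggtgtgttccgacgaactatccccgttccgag
Rrm2: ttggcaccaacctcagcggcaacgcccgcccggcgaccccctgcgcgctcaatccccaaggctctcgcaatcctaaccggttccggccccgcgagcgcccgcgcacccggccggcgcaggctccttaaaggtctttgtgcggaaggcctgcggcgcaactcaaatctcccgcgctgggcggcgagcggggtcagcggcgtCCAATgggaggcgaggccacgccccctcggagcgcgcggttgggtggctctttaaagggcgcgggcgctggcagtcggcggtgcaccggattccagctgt
Cdc20: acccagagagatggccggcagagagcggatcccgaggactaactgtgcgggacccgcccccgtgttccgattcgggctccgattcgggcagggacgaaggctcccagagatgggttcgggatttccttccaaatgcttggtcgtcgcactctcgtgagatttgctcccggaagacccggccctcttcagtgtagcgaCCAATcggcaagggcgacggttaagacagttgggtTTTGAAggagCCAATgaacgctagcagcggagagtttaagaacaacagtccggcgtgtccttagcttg
Kif23: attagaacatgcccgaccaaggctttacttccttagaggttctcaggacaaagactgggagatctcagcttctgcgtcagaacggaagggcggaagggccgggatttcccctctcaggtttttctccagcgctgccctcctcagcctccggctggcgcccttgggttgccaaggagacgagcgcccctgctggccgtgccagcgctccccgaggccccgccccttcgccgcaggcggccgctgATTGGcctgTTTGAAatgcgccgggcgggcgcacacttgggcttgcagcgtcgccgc
The Mcm6 window (chr1:128359656-128359955, minus strand) holds 3 E2F words, of which the first and second overlap into 1 run of capitals, and 2 CCAAT words. The Cdca7 window (chr2:72475969-72476268, plus strand) has a single E2F word and none of the others. The Rrm2 window (chr12:24708004-24708303, plus strand) has 1 CCAAT word. Cdc20 (chr4:118437294-118437593, minus strand) has a CHR word with a CCAAT word on each side, and Kif23 (chr9:61946750-61947049, minus strand) has a CHR word just after a CCAAT word.

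Among the G1 cyclins and kinases, Ccnd1 and Cdk6 rose by day 10, and the 3 other genes did not pass at any time. Ccnd1, the D-type cyclin that growth signals induce, had log2 levels of 3.04 and 2.66 in the controls, 4.08 and 2.75 at day 4, 5.06 and 3.81 at day 7 and 5.36 at day 10. Both day 7 arrays and the day 10 array lay above all controls. The difference was 1.58 ± 0.57 at day 7 (SE, limma adjusted p = 0.17) and reached 2.51 ± 0.69 at day 10, or 5.71-fold (adjusted p = 0.041). Cdk6, a kinase partner of the D-type cyclins, was not well above background on either control array (log2 level -4.20 and -3.99), and read -2.82 and -3.79 at day 4, -2.87 and -2.90 at day 7 and -1.97 at day 10. Every knockout array was above the controls. At day 10 the measured levels gave a 4.37-fold rise (means -1.97 and -4.09, adjusted p = 0.014). The control level was not well above background, so the size of this fold is uncertain. The lowest day 10 difference over the other settings was 0.56 (log2). Ccnd3, the D-type cyclin whose group means differed least, read 3.06 and 3.17 in the controls, 3.63 and 3.31 at day 4, 3.71 and 3.40 at day 7 and 3.00 at day 10, a difference of 0.44 ± 0.24 at day 7 (adjusted p = 0.34). The remaining G1 genes, Ccnd2 and Cdk4 (the usual partner kinase), had day 10 differences of -0.38 and -0.68, neither past the test.

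None of the 5 measured genes among the E-type cyclins, Cdk2 and the E2F factors passed at any time, and their median difference was 0.09 at day 4, 0.14 at day 7 and -0.14 at day 10. E2f1, an activating E2F, had log2 levels of -0.02 and -0.17 in the controls, 0.45 and -0.39 at day 4, -0.47 and -0.50 at day 7 and -0.58 at day 10. Its day 7 and day 10 arrays lay below both controls, by 0.39 ± 0.31 on average at day 7 (log2 -0.39, adjusted p = 0.51). E2f2, another activator, read 3.09 and 3.11, 3.34 and 2.42, 3.78 and 3.13, and 3.40 in the same order. Cdk2, the kinase of S-phase entry, kept the narrowest range of this group: -0.44 and -0.64 in the controls, -0.37 and -0.96 at day 4, -0.55 and -0.95 at day 7 and -0.68 at day 10. Its 95% interval at day 7 ran from -0.91 to 0.49. Ccne1 and the repressor E2f8 completed the group, with day 10 differences of 0.46 and -0.75.

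Of the 11 genes of origin licensing and firing none passed the test at any time, and their group means went both ways, with medians of 0.12, 0.17 and -0.10 at the 3 times. Cdc6, the loader of the Mcm helicase, had the smallest p of the group at day 7. It read -1.83 and -2.16 in the controls, -1.55 and -2.08 at day 4, -1.03 and -1.34 at day 7 and -1.59 at day 10, a day 7 difference of 0.82 ± 0.28 (adjusted p = 0.15). A second Cdc6 probe gave 0.05 at day 7, so the probes disagreed. Cdc45, part of the active helicase, read -2.04 and -2.53, -1.91 and -3.09, -1.62 and -1.90, and -2.61, and both day 7 arrays were above both controls. Gins2, a GINS subunit, read -0.15 and -0.31, 0.49 and -0.40, 0.63 and -0.24, and -0.17, which overlaps the controls at each time. Mcm7, a helicase subunit and the gene of this group whose means differed least, showed the mouse pattern plainly. Its levels were 3.99 and 3.88 in the controls, 4.49 and 3.67 at day 4, 4.43 and 3.78 at day 7 and 3.93 at day 10. The interval of its day 7 difference, -0.70 to 1.04, allowed a change in either direction. The 6 Mcm genes, Mcm2 to Mcm7, had day 7 differences from -0.10 (Mcm5) to 0.38 (Mcm3). At day 10 Mcm3 (0.36) and Mcm4 (0.23) lay above both controls, whereas Mcm2 (-0.21) and Mcm6 (-0.60), whose promoter is shown above, lay below both. Mcm5 (-0.11) was all but level with the lower control, at 2.650 against 2.652. Cdt1, the other loader, was at 0.13 at day 7 and -0.69 at day 10, and Gins1 was at 0.33 at day 7.

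In DNA synthesis and nucleotide supply, Rrm2 rose and Cdca7 fell by day 10. Rrm2, the small and cell-cycle-regulated subunit of ribonucleotide reductase, had log2 levels of 3.06 and 3.22 in the controls, 4.04 and 3.17 at day 4, 4.70 and 3.35 at day 7 and 5.46 at day 10. One day 4 array was inside the control range, and both day 7 arrays were above it. The difference was 0.89 ± 0.50 at day 7 (adjusted p = 0.36) and 2.32 ± 0.62 at day 10, or 4.99-fold (adjusted p = 0.036). Cdca7, a nuclear protein that works with the chromatin remodeller Hells, read 3.56 and 3.48 in the controls, 3.68 and 3.06 at day 4, 2.41 and 2.38 at day 7 and 1.83 at day 10. The day 7 arrays lay close together and below both controls and both day 4 arrays. Its day 7 difference of -1.13 ± 0.27 had an adjusted p of 0.061, and that of day 10, -1.69 ± 0.33 or 3.23-fold lower, one of 0.012. Rrm1, the large subunit of the same enzyme, read 2.44 and 2.09, 2.69 and 1.96, 3.22 and 2.28, and 2.80, and at day 10 it was 0.53 ± 0.50 above the controls (adjusted p = 0.47). Tyms, which makes thymidylate, read -1.25 and -2.06, -1.68 and -2.25, -1.62 and -2.35, and -1.71, with every group inside the control range or beside it. Pcna, the sliding clamp, was 0.29 ± 0.25 above the controls at day 7 and at -0.19 at day 10.

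All 7 measured genes of the mitotic cyclins, kinases and Foxm1 had positive differences at day 4, day 7 and day 10 (medians 0.30, 0.60 and 0.31), and none passed the test at any of them. Foxm1, the transcription factor of the mitotic programme, read 0.49 and 0.29 in the controls, 1.10 and 0.39 at day 4, 1.46 and 0.87 at day 7 and 1.55 at day 10. It was above both controls on every array from day 7 on, by 0.78 ± 0.33 at day 7 (adjusted p = 0.24), then by 1.16 ± 0.41 at day 10 (adjusted p = 0.083). Ccnb1, cyclin B1, read 2.18 and 1.90, 3.06 and 2.01, 3.16 and 2.33, and 2.51 in the same order. Aurka, the kinase of the spindle poles, read 2.53 and 2.39, 3.17 and 2.36, 3.55 and 2.57, and 2.88. For both, the day 7 and day 10 arrays lay above the controls, with day 7 differences of 0.70 and 0.60 (adjusted p = 0.40 and 0.45). Cdk1, the mitotic kinase itself, varied least between groups, at 0.74 and 0.59, 1.46 and 0.52, 0.99 and 0.71, and 0.81. Of the others, Ccna2, Ccnb2 and Plk1, the day 7 differences were 0.44, 0.41 and 0.60. The direction of the weakest ones turned with the setting: Ccna2 and Cdk1 were below the controls at day 10 with scaling to the array medians (-0.19 and -0.05), where the median of all features was -0.33, and with normexp (-0.02 and -0.05), and Cdk1 was at -0.13 at day 7 with normexp. With the replicate number as a block, Ccna2 (-0.31), Cdk1 (-0.08), Plk1 (-0.08) and Ccnb2 (-0.01) were all below the controls at day 10. Without replicate 1 of day 4, Ccna2, Ccnb1, Ccnb2, Cdk1, Aurka and Plk1 had negative day 4 differences.

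In the group of spindle, kinetochore and mitotic exit genes 14 of 15 were measured, and Kif23 passed at day 10. Kif23, the kinesin of the central spindle that serves cytokinesis, read -1.90 and 0.01 in the controls, 1.66 and 0.90 at day 4, 2.15 and 1.35 at day 7 and 2.24 at day 10. All 5 knockout arrays lay above both controls, but the 2 controls were themselves 1.91 apart, the widest control gap among the 47. The first difference was 2.22 ± 0.66 at day 4 (adjusted p = 0.58). Later ones were 2.70 ± 0.66 for day 7 (adjusted p = 0.066) and 3.19 ± 0.81, or 9.10-fold, for day 10 (adjusted p = 0.031). Without control replicate 1, the low one, the day 10 value was 2.23, and without control replicate 2 it was 4.14. Cdc20, the activator of the anaphase ubiquitin ligase, had steady controls at 3.53 and 3.53, then 4.75 and 3.62 at day 4, 5.45 and 4.47 at day 7 and 5.18 at day 10. Here too all 5 knockout arrays were above the controls, by 1.43 ± 0.47 at day 7 (adjusted p = 0.14), then by 1.65 ± 0.58 at day 10 (adjusted p = 0.081). Tpx2, which nucleates spindle microtubules, read 0.79 and 0.54, 1.38 and 0.47, 2.06 and 1.06, and 2.10. It was above the controls at day 7 and day 10 (differences 0.90 and 1.44, adjusted p = 0.29 and 0.097). Cdca8, borealin of the passenger complex, changed least: 4.15 and 3.53, 4.28 and 3.36, 4.49 and 3.71, and 4.19. Among the other 10 genes, day 7 differences ran from -0.11 (Bub1b) to 0.72 (Cenpe), and day 10 differences from -0.73 (Ube2c) to 1.12 (Cenpe). Mki67, the proliferation antigen, was 0.51 ± 0.35 above the controls at day 7 (95% interval -0.33 to 1.36, adjusted p = 0.44), and Top2a, the topoisomerase that untangles chromosomes, 0.45 ± 0.37. Birc5, survivin, was at 0.01 at day 7 on the probe used, and at 0.04 and -0.51 on 2 others.

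**Figure D4:**
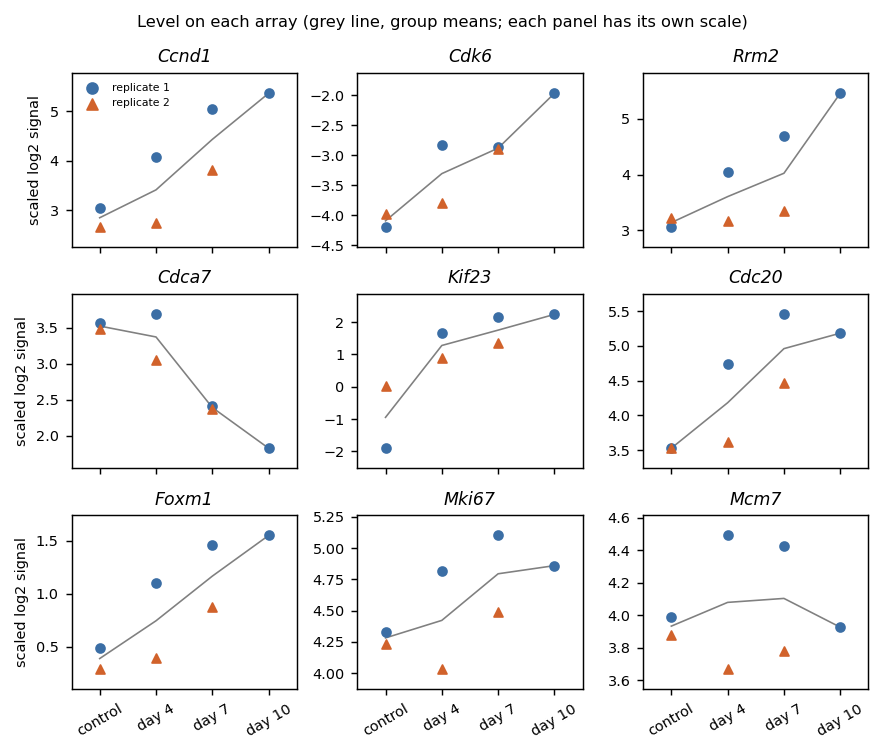
Log2 level relative to the array's 75th percentile (vertical axis, its own range in each panel) of 9 cell cycle genes in the control, day 4, day 7 and day 10 groups; circles are replicate 1, triangles replicate 2, and the grey line joins group means. Cdca7 steps down with its 2 day 7 arrays close together, Ccnd1 and Rrm2 are higher in replicate 1 at day 4 and day 7, and Mcm7 separates by replicate at day 4 and day 7 and returns to the controls at day 10.

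How firmly the 5 day 10 calls stood differed between genes. Cdca7 was called in each of the 6 fits that left out 1 array (adjusted p = 0.015 to 0.050). Ccnd1 was not called without control replicate 1 (adjusted p = 0.081) or without control replicate 2 (0.11). Rrm2 was not called without either control (0.10 and 0.077) or without either day 4 array (0.054). Cdk6 was not called without control replicate 1 (0.052) or with the normexp correction, where its difference was 0.56, and Kif23 was not called without either day 4 array (0.060).

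Outside the 50, some genes of the 7 related lists passed the test at day 7 or day 10. Wee1, the kinase that holds Cdk1 inactive, fell at day 7 and day 10: 1.91 and 1.83 in the controls, 1.40 and 1.37 at day 4, -0.11 and -0.24 at day 7 and -0.74 at day 10. The 2 arrays of each group lay close together, and the groups did not overlap. Its difference was -2.05 ± 0.20 at day 7 (adjusted p = 0.0051), followed by -2.61 ± 0.25 at day 10 (adjusted p = 0.0010), and it was the 1 call among 7 measured checkpoint kinases and phosphatases at either time. Of 10 CDK inhibitors and pocket proteins, 1 rose at day 7, and 1 rose and 2 fell at day 10; over all features 7.37% were called at day 7, and 10.7% higher and 17.5% lower at day 10. Cdkn1c, the inhibitor p57, read 1.61 and 1.66, 2.08 and 2.43, 3.64 and 3.08, and 1.00, up by 1.72 ± 0.27 at day 7 (adjusted p = 0.019) and back to -0.63 from the controls at day 10 (adjusted p = 0.21). Cdkn2a, the locus of p16 and p19Arf, read -4.35 and -3.63, -3.80 and -6.32, -2.27 and -2.12, and 1.66. At day 10 it was 5.65 ± 0.95 above the controls (adjusted p = 0.0074). Its control levels were near background, and only 1 of 2 day 4 arrays was well above it. The day 10 difference ran from 3.59 to 6.01 over the 16 other settings that measured it. Cdkn2c, the inhibitor p18, fell by 1.52 at day 10 (adjusted p = 0.018), as did Cdkn1b, p27, by 0.88 (adjusted p = 0.049).

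Ect2, the exchange factor that starts the cleavage furrow, rose at day 7 and day 10, with every knockout array above the controls: 0.60 and 0.67 in the controls, 2.56 and 1.63 at day 4, 3.11 and 2.42 at day 7 and 2.62 at day 10. It was 2.13 ± 0.39 above the controls at day 7 (adjusted p = 0.028), then 1.99 ± 0.47 above them at day 10 (adjusted p = 0.025). Anln, anillin of the cytokinetic ring, rose by 2.92 ± 0.46 at day 10 (adjusted p = 0.0059), and Pttg1, securin, fell by 1.55 (adjusted p = 0.016). Those were the calls among 27 measured motors, condensins and exit factors, namely 1 rise at day 7, then 2 rises and 1 fall at day 10, a smaller share in each direction at day 10 than over all features (10.7% and 17.5%). In the list of 12 kinetochore and checkpoint genes Zwint rose by 1.80 at day 10 (adjusted p = 0.030). Among the genes for fork and chromatin duplication Tk1, a kinase of thymidine salvage, fell by 1.76 at day 10 (adjusted p = 0.019). Of 12 other E2F and MuvB factors Mybl2 rose by 2.81 (adjusted p = 0.011) and Tfdp2 fell by 1.06 (adjusted p = 0.038) at day 10. Among 14 measured origin factors Orc2 was the single call, up by 1.69 at day 10 (adjusted p = 0.017). None of the genes in these 7 lists was called at day 4. Over the 17 other settings Wee1, Mybl2 and Anln were called at day 10 in every one, and Cdkn2a in the 16 that measured it. Calls held in 12 settings for Zwint, 14 for Ect2, Cdkn2c and Tk1 and 15 for Pttg1 and Orc2. Tfdp2 was called in only 7 (adjusted p up to 0.285) and Cdkn1b in only 5 (up to 0.387). At day 7 Wee1 was called in all 17, and Ect2 and Cdkn1c in 12.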

How the data were processed

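RNA of 7 samples was measured on 1-colour Agilent arrays. The deposited intensity values are spot signals that Agilent Feature Extraction 11.5.1.1 wrote for array design 028005, with background subtracted, per the file headers, which give mm9 as genome build label. The value table deposited by the authors equalled these signals within 0.1% for 100% of single-spot probes (column medians 15.2 to 30.5, linear, not centred), and its treatment of probes with several spots is unknown. The aligner, caller or other steps are not given in the sources used here.

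Outlier and control spots were left out, spots of a probe were averaged, and log2 values were computed from the deposited signals and set relative to each array's 75th percentile. The files name probes by accession and hold no gene names. Accessions were matched to RefSeq (GRCm38.p6): 27509 of 55681 probes had a symbol, and the 28172 others stayed as features of their own. The brightest probe stood for a gene, and features well above background on under 2 arrays were left out. limma 3.58.1 in R 4.3.3 modelled each group by its mean, all 7 arrays together (3 residual and 3.15 prior degrees of freedom), with 2-sided tests, Benjamini-Hochberg adjustment over all features and calls at an adjusted p under 0.05. The pipeline was tested on simulated data. The number of arrays limits precision. The 17 other settings tried are given at the end. The normexp alternative used median signals, since the files hold no mean signals.

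The genes, roles and related lists were chosen with earlier results of these data known, so no list is independent support. Values on every array are given for genes called in any comparison, for the 3 of each role with the smallest p at day 7, and for the 1 whose group means differed least; from each related list up to 3 called genes are given, except 1 result that is not reported here. Cdkn1b, Bub1, Mki67, Top2a, Pcna and Birc5 were added after their values were seen.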

Additional observations from a re-analysis of the deposited data

Results flagged for a closer look

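Some cell cycle genes lay above both controls on every array of an earlier time and below both on the day 10 array. They were picked by these same values, and the share of all features that did so was not counted. Over the 17 other settings the day 10 difference from control ran from -0.45 to 0.10 for Pcna and from -0.37 to 0.09 for Ccnd3. For Cdt1, Kif11 and Cdc45 it was negative in all 17. The later minus the earlier level, between day 4 and day 10, was -0.48 for Ccnd3, -1.01 for Cdt1, -0.53 for Pcna and -0.99 for Kif11 (log2). Between day 7 and day 10 it was -0.56 for Ccnd3, -0.85 for Cdc45, -0.48 for Pcna and -0.80 for Kif11. The test of each difference did not pass (limma adjusted p = 0.11 to 0.35 over these 8), and day 10 was 1 array, on which enterocyte, stem cell and T cell markers were also at their lowest.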

How the results depend on the processing

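Of the 5 genes called at day 10, Ccnd1, Kif23, Rrm2 and Cdca7 kept their direction in 17 other settings and Cdk6 in the 16 that measured it; Ube2c, called with the block alone, ran from -1.35 to 0.13 at day 10. Of the 47 genes, the number called at day 7 went from 0 to 2 with normexp and with probes well above background on all 7 arrays (Cdca7 and Kif23 both times), and to 1 when arrays were scaled to the median of the 47 genes (Kif23), a setting added after seeing the data. At day 10 it went from 5 to 3 with median scaling, to 2 with no filter on dim probes, where 48984 features were tested, and to 2 with scaling to the 47 genes' median (Ccnd1 and Kif23). It rose to 6 with scaling over the probes detected on all arrays (Foxm1 added), to 6 with quantile normalization (Cdc20 added) and to 7 with the 2 groups alone, where Cdc20, Cenpe and Tpx2 were added and Kif23 was lost. Leaving out 1 array in turn gave 0 to 1 at day 7, 2 to 5 at day 10 and 0 to 1 from day 7 to day 10; with control replicate 2 left out Kif23 was the call at day 7, and without replicate 1 of day 7 Rrm2 was the call from day 7 to day 10. With the replicate number as a block 1 gene was called at day 7 (Ccnd1), 5 at day 10 and 1 from day 7 to day 10 (Ube2c, lower), and Kif23 was no longer called at day 10 (adjusted p = 0.052); 18 of 47 genes were then above the controls at day 10, against 26 without the block. The groups share 2 numbers. Deviations of same-numbered arrays correlated at 0.0083 for control with day 4, 0.086 for control with day 7 and 0.25 for day 4 with day 7. With 2 arrays per group these values cannot decide whether same-numbered arrays share a factor. The labels name no pairing, so none was assumed. Where no construction of the setting shows it, the cause was not tested. Over all features the calls ran from 1 to 27 at day 4 (8 in the report), 535 to 2100 at day 7 (1824), 3335 to 7545 at day 10 (6995), 0 to 1100 from day 4 to day 7 (695) and 1778 to 4633 from day 7 to day 10 (4515). The median difference of the 47 genes at day 10 ran from -0.08 to 0.35 over settings that kept all arrays, scaling to their own median aside. With 1 or 2 arrays per group the precision is limited. For genes near background, such as Cdk6 in the controls, the size of a difference is uncertain.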
